A study of Rattus norvegicus with 22 samples.

Results

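Genes of the lysosome were followed in the nucleus accumbens (NAc) of rats exposed to ethanol (EtOH), with the gene for lysosomal acid lipase, Lipa, as the starting point. The list held 33 genes, of which 32 were counted in the 22 libraries, and Naglu is not analysed here. The list was chosen by the counts of Lipa, which were higher in the EtOH group of both experiments, so the values of Lipa are given as a description with no test, and the results concern the other genes. Of 17310 genes counted, 8655 in each experiment had a mean normalised count above the median of all genes and were tested. Of the 32 lysosomal genes, 30 passed this filter in experiment 1 (all but Gusb and Tfeb) and 31 in experiment 2 (all but Tfeb), which left 29 and 30 genes beside Lipa.

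All 22 animals were adult male outbred Wistar rats, and each library came from a separate rat. In experiment 1, 5 rats had a bottle of 6% (v/v) EtOH beside water for 8 weeks, and 5 rats had water. In experiment 2, 6 rats received 2.5 g/kg EtOH (30% v/v) by gavage 2 times daily for 3 weeks and 6 rats received water by gavage, and all 12 had access to 6% EtOH for 4 weeks before and 2 weeks after the gavage period. The gavage comparison therefore had EtOH drinkers on both sides and no rats that had only water. Core and shell of the NAc were dissected as 1 sample from both hemispheres, so the counts are from mixed tissue in which fewer cells of a type and less RNA per cell cannot be told apart.

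The lysosome breaks down lipids, proteins and glycans in an acid lumen. Soluble hydrolases do the cutting, a vacuolar proton pump supplies the acid, and heavily glycosylated membrane proteins line the organelle and let products out. LIPA cleaves cholesteryl esters and triglycerides taken up with lipoproteins, and the freed cholesterol leaves through NPC2 and NPC1. Many lysosomal genes share a promoter element bound by the transcription factor TFEB, and in the brain much of the lysosomal load is carried by microglia as well as by neurons. Inherited loss of many of these genes causes storage disease with damage to the nervous system.

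Sequencing was deeper in experiment 2, with 6713617 to 8765472 reads on genes per rat, than in experiment 1, with 2962291 to 5247386, but the rats differed more from each other: the biological coefficient of variation was 31.3% in experiment 2 and 11.1% in experiment 1. The share of reads that lay outside annotated genes was 48.4 to 51.1% in experiment 1 and 46.1 to 58.0% in experiment 2. In experiment 2 it was above 52% in 4 rats, replicates 1 and 5 of the water gavage group and replicates 1 and 2 of the EtOH gavage group. Rats given water by gavage had a mean of 50.1% ± 3.09 and those given EtOH 52.9% ± 3.42 (SD, n = 6 each) (exact permutation test, two-sided, p = 0.175). Results of experiment 2 are therefore also given without these 4 rats, a choice made after the data were seen. Markers of striatal projection neurons, the main neurons of the NAc, were present in every library, with none of the 8 at 0.

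Lipa had more reads in the EtOH drinkers of experiment 1. The normalised read count, which scales each library to the average library of its experiment, was 193, 207, 179, 178 and 213 in the 5 water rats (194 ± 15.6, SD, n = 5). It was 265, 256, 266, 259 and 217 in the 5 EtOH rats (253 ± 20.4, SD, n = 5), so that the lowest EtOH rat stood just above the highest water rat and the groups did not overlap. On the log2 scale the EtOH group was 0.38 above the water group (standard error, SE, 0.085), a fold of 1.30. In experiment 2 the count ran from 438 through a median of 495 to 698 in the water gavage group (529 ± 96.3, SD, n = 6). It ran from 427 through a median of 702 to 848 in the EtOH gavage group (692 ± 155, SD, n = 6), and the groups overlapped, since replicate 4 of the EtOH gavage group was the lowest of all 12. The log2 fold change of Lipa was 0.39 (SE 0.172) in experiment 2, 0.41 without the 4 rats above 52%, and 0.23 when the share of reads outside genes entered the fit as a covariate. These values chose the list and carry no test.

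**Figure D1:**
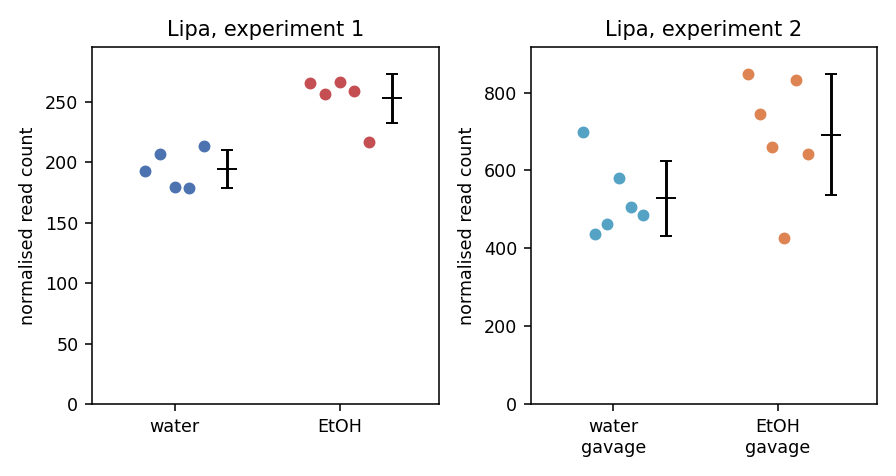
Normalised read count of Lipa in each rat (points, y axis from 0) by group, with the mean and SD beside each group (bar). In experiment 1 the 5 EtOH rats lie at 217 to 266 and the 5 water rats at 178 to 213, while in experiment 2 the ranges of 427 to 848 and 438 to 698 overlap.

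In experiment 1 the question was whether the other lysosomal genes were shifted in the rats with more Lipa. Of 29 other lysosomal genes, 17 had a log2 fold change above 0 and 12 below 0, while 49.5% of all tested genes were above 0. Their median log2 fold change was 0.0092, against a median over all tested genes of -0.0012, and they ranged from -0.15 for Neu1, the lysosomal sialidase, to 0.27 for Ctsz, a carboxypeptidase of the cathepsin family. By the quasi-likelihood test of edgeR, adjusted by Benjamini-Hochberg over all tested genes, 0 of 29 passed a false discovery rate (FDR) of 0.05, as for all tested genes (0%). At an unadjusted p under 0.05, 0 of 29 were called, against 5.58% of all tested genes, and DESeq2 also called 0 of 29 at either level. In 0 of 29 did the 2 groups fail to overlap, against 0.843% of all tested genes.

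Ctsz had the lowest p of the 29. Its normalised count was 65.1, 85.3, 56.9, 69.6 and 55.5 in water rats and 85.8, 76.0, 77.1, 77.0 and 81.9 in EtOH rats. All 5 EtOH rats exceeded 4 of the water rats, but water replicate 2 stood among them. The log2 fold change of Ctsz was 0.27 (SE 0.139), with an unadjusted p of 0.0718, an adjusted p of 0.866 (edgeR, quasi-likelihood) and an exact permutation p of 0.0556 (two-sided). Without water replicate 2 the unadjusted p of Ctsz was 0.0124, at an adjusted p of 0.891 in the same edgeR test.

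Grn encodes progranulin, a secreted growth factor that is cleaved to granulins within lysosomes. Its count was 197, 248, 244, 205 and 266 in water rats and 276, 230, 313, 246 and 236 in EtOH rats. The groups overlapped over most of their range, with EtOH replicate 3 the highest. Their difference on the log2 scale was 0.16 (SE 0.107; edgeR adjusted p = 0.914).

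Among the genes of lipid breakdown, 3 of 11 were above 0 and the median log2 fold change was -0.018. The cholesterol exporters that act on the product of LIPA were close to 0: Npc1 had 377 ± 36.4 normalised counts in water rats and 400.1 ± 42.1 in EtOH rats (SD, n = 5 each), a log2 fold change of 0.09 (SE 0.085) that was 0.02 without EtOH replicate 5. Npc2 had 435 ± 42.5 and 431 ± 31.0, a log2 fold change of -0.01 (SE 0.078). Psap, the precursor of the saposins that present sphingolipids to their hydrolases, had 7855 ± 258 and 7788 ± 357, with a log2 fold change of -0.01 (SE 0.051). The 95% interval of Psap, -0.12 to 0.10, was the narrowest of the 29.

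The peptidases were above 0 in 5 of 6, with a median log2 fold change of 0.05, and the enzymes of glycogen and glycoprotein breakdown in 3 of 4 tested. Man2b1, the lysosomal alpha-mannosidase, had counts of 274, 222, 221, 248 and 227 in water rats and of 220, 203, 207, 251 and 206 in EtOH rats. Its groups overlapped through EtOH replicate 4, and its log2 fold change was -0.13 (SE 0.089; edgeR adjusted p = 0.914). The membrane protein Lamp1, a usual marker of the organelle, had 1707 ± 112 and 1714 ± 48.0 (SD, n = 5 each), a log2 fold change of 0.01 with an interval of -0.11 to 0.13. The proton pump subunits Atp6v0a1 and Atp6v1a were at 0.01 each, with intervals of -0.12 to 0.15 and -0.12 to 0.14.

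In experiment 2 most of the 30 other genes on the list had lower mean counts after EtOH gavage, opposite to Lipa, but none beyond the spread between rats. This lean was not seen in the pool of 6 further lysosomal and sterol lists, where 50 of 97 genes were above 0. By list, 2 of 8 genes of cholesteryl ester storage and export and 5 of 13 of hydrolase delivery were above 0. The other hydrolases had 14 of 26 above 0, the other membrane proteins 11 of 18 and the other pump subunits 10 of 16. The TFEB-family and nutrient-sensing genes had 8 of 16. Of the 30 genes beside Lipa, 23 had a log2 fold change below 0 and 7 above 0. Of all tested genes, 50.1% were above 0. The 7 were Asah1, Ppt1, Atp6v1a, Scarb2, Gla, Npc1 and Lamp2. The median was -0.13, against 0.0009 over all tested genes, and the range ran from -0.81 for Arsa, the sulfatase of myelin sulfatide, to 0.22 for Asah1, acid ceramidase. By the same edgeR test, 0 of 30 passed an FDR of 0.05 (0% of all tested genes) and 0 of 30 had an unadjusted p under 0.05 (1.33% of all tested genes). DESeq2 also called 0 of 30 at either level. In 0 of 30 were the groups apart, against 0.0116% of all tested genes. Without the 4 rats above 52%, 12 of 30 were above 0 and the median was -0.02, and with the share of reads outside genes as a covariate 14 of 30 were above 0 with a median of -0.01. Without those 4 rats 1 of 30 had an unadjusted p under 0.05, Asah1 at a log2 fold change of 0.28 and an edgeR adjusted p of 0.46, where 10.6% of all tested genes had one.

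**Figure D2:**
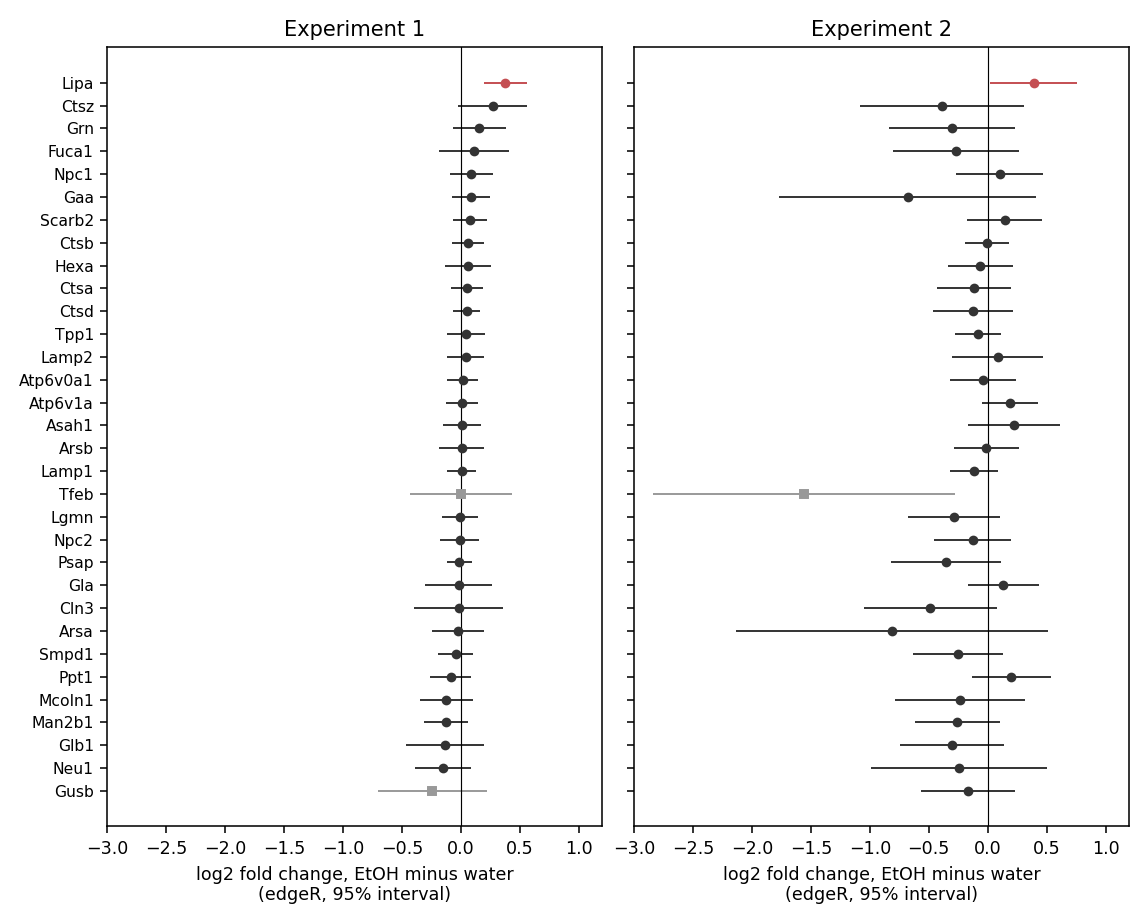
Log2 fold change (x axis, EtOH minus water, edgeR) of the 32 lysosomal genes counted, with 95% intervals, in experiment 1 (left) and experiment 2 (right), ordered by experiment 1. Lipa is drawn in red, and grey squares mark genes below the filter (Gusb and Tfeb in experiment 1, Tfeb in experiment 2), fitted without it; 17 of 29 tested genes beside Lipa lie above 0 on the left and 7 of 30 on the right, with wider intervals.

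Cln3, a membrane protein lost in juvenile Batten disease, had the lowest p of experiment 2. Its count ran from 111 through a median of 164 to 241 after water gavage and from 69.3 through 125 to 192 after EtOH gavage. The groups overlapped over most of that span, and in each of them the lowest rat was one of the 4 above 52%. For Cln3 the log2 fold change was -0.49 (SE 0.261), with an unadjusted p of 0.084, an adjusted p of 0.675 (edgeR, quasi-likelihood) and an exact permutation p of 0.0866. It was -0.35 without the 4 rats above 52% and -0.16 with the share as a covariate. In experiment 1 Cln3 had 62.0 ± 15.2 and 59.8 ± 8.78 normalised counts (SD, n = 5 each), a log2 fold change of -0.02.

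Psap was low in the EtOH gavage rats with the highest shares of reads outside genes. After water gavage its count ran from 8731 through a median of 11893 to 14512, and after EtOH gavage from 4207 through 10688 to 11629. The EtOH gavage rats other than replicates 1 and 2 lay at or above 10574, inside the range of the water gavage rats, and replicates 1 and 2 were at 4207 and 7573. The log2 fold change of Psap was -0.36 (SE 0.218; edgeR adjusted p = 0.675), -0.20 without the 4 rats above 52%, and -0.09 with the share as a covariate.

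Atp6v1a, the catalytic subunit of the proton pump, was among the 7 genes above 0. Its count ran from 3275 through 4182 to 4461 after water gavage and from 3724 through 4629 to 5210 after EtOH gavage, and the groups overlapped. Atp6v1a had a log2 fold change of 0.19 (SE 0.109; edgeR adjusted p = 0.675; exact permutation p = 0.0866). The other pump subunit, Atp6v0a1 of the membrane sector, was at -0.04 (SE 0.130).

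The regulator Grn, the marker Lamp1 and the cholesterol exporters were spread around 0. Grn ran from 337 through 529 to 703 after water gavage and from 210 through 474 to 576 after EtOH gavage, for a difference of -0.30 on the log2 scale (SE 0.247) and of -0.18 without the 4 rats above 52%. Lamp1 ran from 3317 through 3644 to 3904 and from 2781 through 3310 to 3781, a log2 fold change of -0.12 (SE 0.093). Lamp1 and Grn both overlapped widely between groups. Npc1 was at 0.10 (SE 0.171; 0.01 without EtOH gavage replicate 3) and Npc2 at -0.13 (SE 0.151), so the pair that exports the cholesterol freed by LIPA was on both sides of 0 with intervals that covered it.

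By role, the peptidases were below 0 in 6 of 6 (median -0.12) and the enzymes of glycogen, glycoproteins and glycosaminoglycans in 5 of 5 (median -0.26). The genes of lipid breakdown were below 0 in 7 of 11 (median -0.13) and the membrane proteins in 3 of 5 (median -0.12). The widest spread between rats was in Arsa, Gaa, the acid alpha-glucosidase that degrades glycogen, and Tfeb. Arsa ran from 34.4 to 261 normalised counts after water gavage and from 14.3 to 194 after EtOH gavage, against 142 to 190 in all 10 rats of experiment 1. Gaa ran from 539 to 2931 and from 233 to 2069, against 1338 to 1808 in experiment 1. Libraries were stranded in experiment 2 and not in experiment 1, and the strand setting of the counting is not given in the sources used here, so levels of Arsa, Gaa and Tfeb in the 2 experiments are set side by side only, and the part of the library type was not tested.

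Tfeb encodes the transcription factor that turns on many lysosomal genes, and it was too low for the filter in both experiments. In experiment 1 its normalised count was 43.5 ± 13.8 in water rats and 44.4 ± 6.61 in EtOH rats (SD, n = 5 each), a log2 fold change of -0.002 (SE 0.206) in a fit of every gene with a count. In experiment 2 it was 10.1, 59.9, 33.7, 27.3, 14.8 and 18.7 after water gavage and 2.20, 4.75, 10.6, 27.4, 7.42 and 1.94 after EtOH gavage. Of the 6 EtOH gavage rats, 4 were below all 6 water gavage rats, while replicate 4 lay at the level of water gavage replicate 4. In the fit of 14121 genes without the filter, the log2 fold change of Tfeb was -1.56 (SE 0.60), with an unadjusted p of 0.0205 and an adjusted p of 0.702 by edgeR, where 2.03% of those genes had an unadjusted p under 0.05. The exact permutation p was 0.0238 (two-sided). The value was -1.53 without the 4 rats above 52% (unadjusted p = 0.02, edgeR) and -0.81 with the share as a covariate (unadjusted p = 0.0871 in the same edgeR test). As few as 2 reads were counted in a rat, so the size of this difference rests on small counts.

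**Figure D3:**
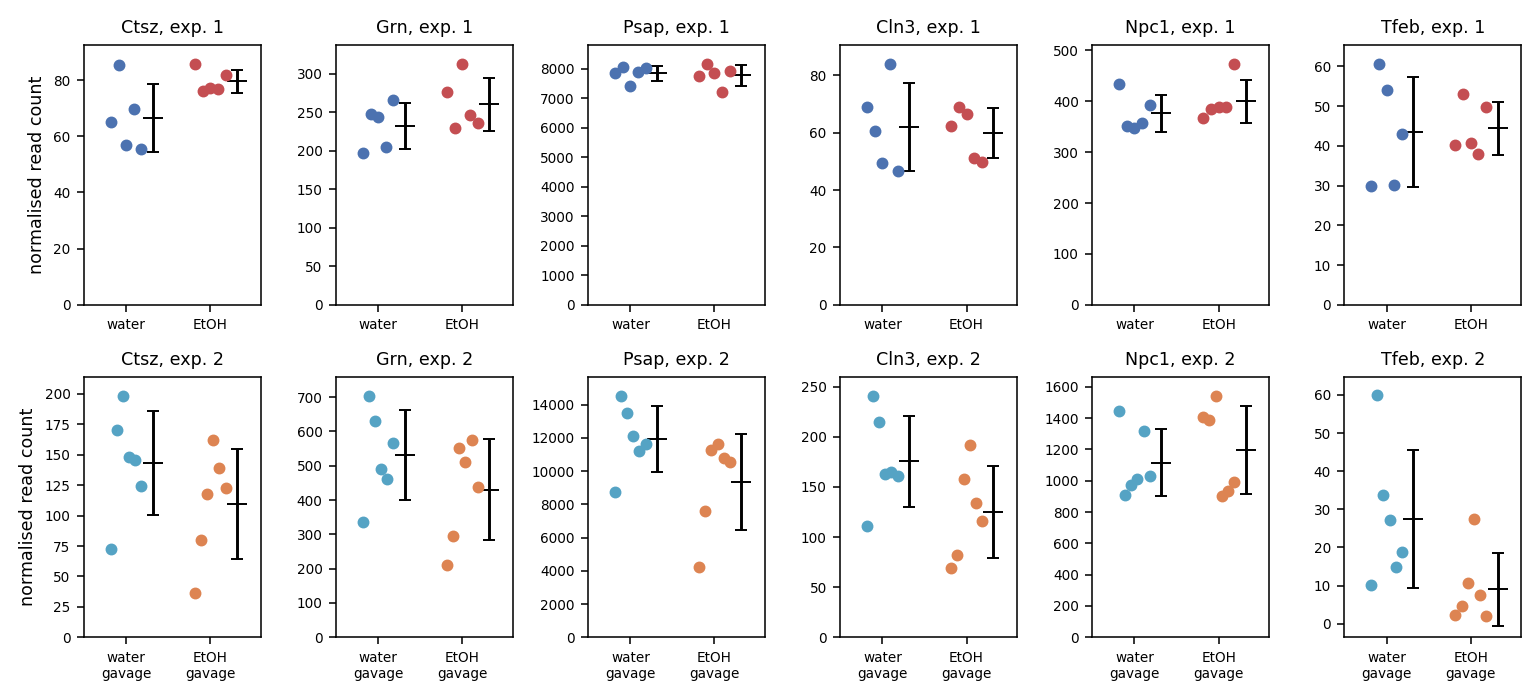
Normalised read count (y axis, counts scaled to the average library of the experiment) of Ctsz, Grn, Psap, Cln3, Npc1 and Tfeb in each rat (points) by group, with mean and SD (bars), in experiment 1 (top) and experiment 2 (bottom). Groups overlap in all 12 panels, and Tfeb in experiment 2 has EtOH gavage rats at 1.94 to 27.4 and water gavage rats at 10.1 to 59.9.

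The effects in the 2 experiments were compared directly. Of 29 genes tested in both, 15 had the same direction (51.7%, against 53% of all genes tested in both), and 5 were above 0 in both (17.2%, against 25.8%): Asah1, Npc1, Lamp2, Scarb2, the receptor that carries glucocerebrosidase to lysosomes, and Atp6v1a. A further 12 were above 0 in experiment 1 and below 0 in experiment 2. The test of the difference (edgeR, quasi-likelihood, over all 22 rats) called 0 of 29 at an FDR of 0.05 (0% of all genes) and 0 of 29 at an unadjusted p under 0.05 (1.88% of all genes). The lowest unadjusted p was 0.112, for Ctsz, whose log2 fold change was lower by 0.64 in experiment 2 with a 95% interval of -1.45 to 0.16. Without the 4 rats above 52%, 3 of 29 had an unadjusted p under 0.05 in the same edgeR test, Psap (difference -0.21), Ctsz (-0.50) and Gaa (-0.73), where 11.1% of all genes had one, and their adjusted p values were 0.432 to 0.438. Without EtOH gavage replicate 4 the 3 were Arsa (-1.33), Ppt1 (0.37) and Gaa (-1.15), where 7.12% of all genes had one, at an edgeR adjusted p of 0.494 each. Without water gavage replicate 1 it was Ctsz alone (-0.78), where 7.88% of all genes had one.

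Whether rats with more Lipa than the rest of their group also had more of the other lysosomal genes was asked across rats, with each group's mean removed so that the difference between groups did not enter. In the 10 rats of experiment 1 the genes stood on both sides of 0. Pearson's r with Lipa was above 0 for 17 of 29 genes with a median of 0.039, where 49.9% of all genes were above 0, and 0 of 29 passed an FDR of 0.05 (0% of all genes, 100000 permutations within groups). The highest were Smpd1, acid sphingomyelinase (r = 0.64, Spearman's rho = 0.35, -0.22 without the 2 rats farthest from the median of Lipa), Grn (r = 0.57, rho = 0.77, 0.43) and Ctsb, cathepsin B (r = 0.54, rho = 0.84, 0.63), at permutation p values of 0.0685, 0.111 and 0.125 and adjusted p of 0.998 each. The relation of Smpd1 to Lipa rested on those 2 rats.

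In the 12 rats of experiment 2 the lysosomal genes split. With Lipa, 9 of 30 were positive and 21 negative, and the median r was -0.50, where 52.1% of all genes were positive with a median of 0.06. At an FDR of 0.05, 2 of 30 passed (8.41% of all genes, by permutation within groups): Ppt1, the thioesterase that removes palmitate from proteins, and Cln3. Ppt1 had r = 0.83 and rho = 0.75 (permutation p = 0.001, adjusted p = 0.0482), and r = 0.76 without the 2 rats farthest from the median of Lipa. Cln3 had r = -0.79 and rho = -0.73 (permutation p = 0.00404, adjusted p = 0.0497), and r = -0.65 without those 2. Asah1 (r = 0.78, rho = 0.87, adjusted permutation p = 0.0512) and Gla, the alpha-galactosidase of globotriaosylceramide (r = 0.75, rho = 0.73, adjusted permutation p = 0.0548), followed.

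The same split ran along the share of reads outside annotated genes. With that share, 20 of 30 lysosomal genes passed an FDR of 0.05 in experiment 2, as did 65.8% of all tested genes, and in experiment 1 0 of 29 did (0% of all genes). The strongest were Smpd1 (r = -0.97, rho = -0.98), Arsa (r = -0.96, rho = -0.93) and Mcoln1, the calcium channel of the lysosomal membrane (r = -0.93, rho = -0.76), on the negative side, and Asah1 (r = 0.91, rho = 0.83), Scarb2 (r = 0.90, rho = 0.80) and Lamp2 (r = 0.87, rho = 0.72) on the positive side, with adjusted permutation p values from 0.00075 to 0.00503. Lipa itself had r = 0.63 and rho = 0.68 with the share, and r = 0.39 without the 2 rats farthest from its median. All 20 genes with a negative r to the share had a negative r with Lipa and a log2 fold change below 0 in experiment 2 (median -0.25), and in experiment 1 they were above 0 in 10 and below 0 in 10. Of the 10 with a positive r to the share, 9 had a positive r with Lipa and 7 were above 0 in experiment 2 (median 0.12). Such relations were common over all tested genes of experiment 2. An absolute r above 0.5 with the share was found in 26 of 30 lysosomal genes and in 76.8% of all tested genes. With Lipa it was found in 23 of 30 and in 63.5%. Matching signs were not counted over all genes. The part of the share in these differences was not tested beyond the values without the 4 rats and with the covariate.

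**Figure D4:**
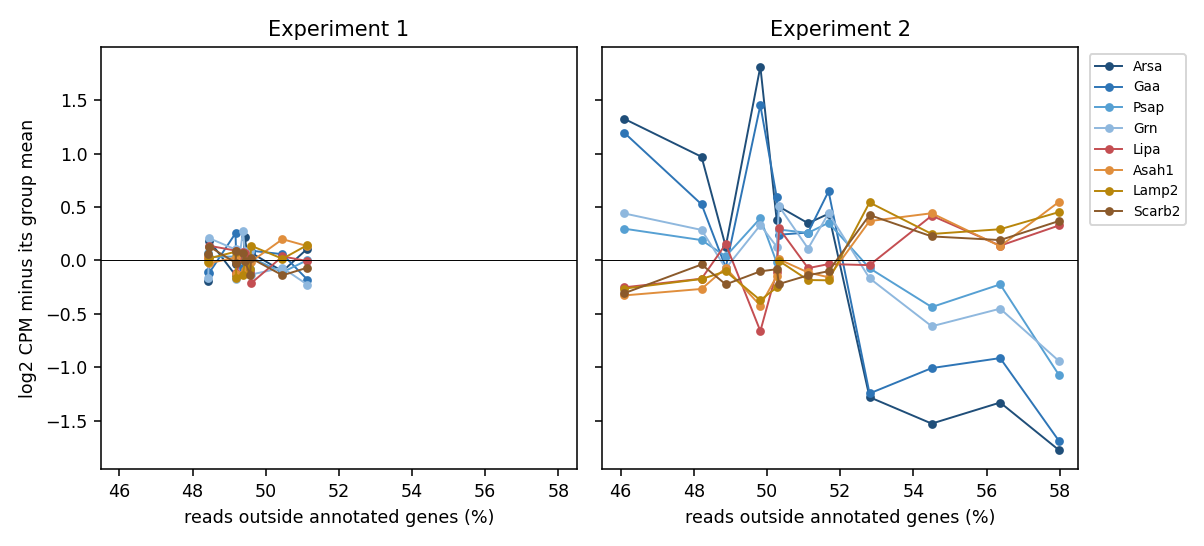
Log2 CPM (library-scaled counts, prior count 2) of 8 lysosomal genes in each rat minus the mean of its group (y axis) against the percentage of its reads outside annotated genes (x axis), in experiment 1 (left) and experiment 2 (right). In experiment 2 Arsa, Gaa, Psap and Grn are below 0 in the 4 rats at 52.8 to 58.0% and Asah1, Lamp2, Scarb2 and Lipa are above 0 there, apart from Lipa in the rat at 52.8%, while in experiment 1 all rats lie between 48.4 and 51.1%.

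Since these 4 rats stood apart, the relations were computed again in the other 8, whose shares were 46.1 to 51.7%. There 12 of 30 genes had a positive r with Lipa, and the median was -0.17 (all tested genes -0.006). By permutation 0 of 30 passed an FDR of 0.05, as did 0 of all tested genes. Groups this small allow few permutations, so hardly any gene could have passed, and this count decides nothing about the lysosomal genes. Asah1 (r = 0.965), Lamp2 (r = 0.955), Ppt1 (r = 0.897), Ctsb (r = 0.836), Atp6v1a (r = 0.773) and Gla (r = 0.6) stayed positive in these 8 rats. Gaa (r = -0.875), Man2b1 (r = -0.865), Arsa (r = -0.849), Ctsd, cathepsin D (r = -0.829), Mcoln1 (r = -0.827) and Cln3 (r = -0.702) stayed negative. Scarb2 turned from r = 0.38 in all 12 rats to r = -0.3, and Lamp1 from -0.25 to 0.334, Glb1, the acid beta-galactosidase, from -0.29 to 0.478 and Npc2 from -0.32 to 0.309.

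**Figure D5:**
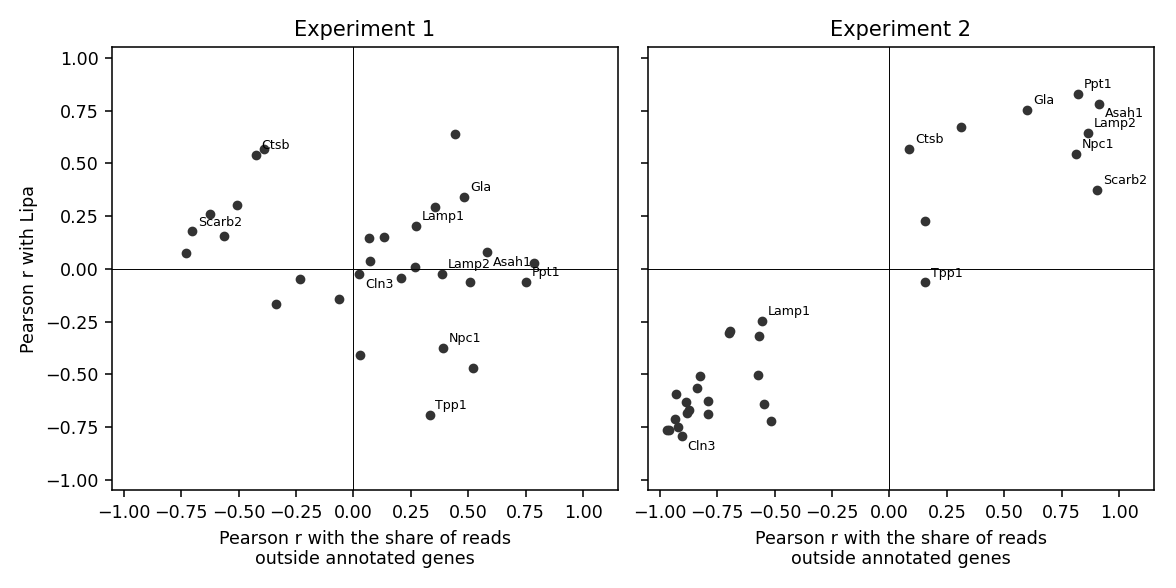
Pearson r of each lysosomal gene with Lipa (y axis) against its r with the percentage of reads outside annotated genes (x axis), over 10 rats of experiment 1 (left, 29 genes) and 12 rats of experiment 2 (right, 30 genes), group means removed. In experiment 2 the genes form a lower left set of 20 and an upper right set of 9, with Tpp1 just below 0 for Lipa, and in experiment 1 they scatter around 0.

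Of the 8654 tested genes beside Lipa, the 5 with the highest r with Lipa were on none of the lysosomal lists in either experiment. So few genes cannot show whether genes of these lists move with Lipa. In experiment 1 they were Lin54 (r = 0.90), Spef1 (r = 0.89), Rqcd1 (r = 0.87), Snap47 (r = 0.87) and Josd2 (r = 0.85), all at an adjusted permutation p of 0.998. In experiment 2 they were Rab33b (r = 0.94), Isca2 (r = 0.93), Tmem65 (r = 0.93), Net1 (r = 0.93) and LOC499331 (r = 0.93), at adjusted permutation p values of 0.0466 to 0.0482.

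The promoter sequences of 25 of the 32 genes were matched by symbol in the RefSeq table of the GRCr8 assembly. The palindrome CACGTG, the core of the element that TFEB binds, lay within the 250 bases before the start of 6 of them, Cln3, Ctsd, Gaa, Glb1, Lamp1 and Mcoln1, and in 5.59% of all 33469 promoters over the same length. The longer form GTCACGTG, which contains the core, was found on either strand in the same 6 and in 1.63% of all promoters. They are shown to let the genes that hold the element be seen beside Lipa, which had no match. For Lipa (chr1:241470741-241470990, minus strand) and Lamp1 (chr16:83075064-83075313, minus strand) all 250 bases are given, and 60 bases for Cln3 (chr1:190597950-190598009, minus strand), Ctsd (chr1:206968822-206968881, minus strand), Glb1 (chr8:122963591-122963650, plus strand), Gaa (chr10:105028261-105028320, plus strand) and Mcoln1 (chr12:6358198-6358257, plus strand). Each reads 5′ to 3′ on the strand of the gene, with CACGTG in capitals.
Lipa: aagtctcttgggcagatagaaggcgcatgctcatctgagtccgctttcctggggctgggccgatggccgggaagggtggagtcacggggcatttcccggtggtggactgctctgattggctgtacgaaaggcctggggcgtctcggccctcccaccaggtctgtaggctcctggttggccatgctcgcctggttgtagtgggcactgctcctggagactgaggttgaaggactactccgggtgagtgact
Lamp1: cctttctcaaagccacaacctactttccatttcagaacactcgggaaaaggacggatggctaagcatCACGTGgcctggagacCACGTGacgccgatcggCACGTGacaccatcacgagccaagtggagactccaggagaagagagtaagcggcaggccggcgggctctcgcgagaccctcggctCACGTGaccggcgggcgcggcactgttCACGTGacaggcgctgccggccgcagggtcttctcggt
Cln3: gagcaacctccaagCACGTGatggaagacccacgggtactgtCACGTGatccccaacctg
Ctsd: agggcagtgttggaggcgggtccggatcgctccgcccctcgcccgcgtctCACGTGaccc
Glb1: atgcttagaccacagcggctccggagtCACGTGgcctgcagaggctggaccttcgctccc
Gaa: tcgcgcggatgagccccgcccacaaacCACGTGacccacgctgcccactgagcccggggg
Mcoln1: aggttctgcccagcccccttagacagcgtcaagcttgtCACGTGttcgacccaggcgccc

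Lamp1 held 5 matches, Cln3 and Ctsd 2 each, and the others 1 each. The log2 fold change of the 6 genes was above 0 in 3 and below 0 in 3 in experiment 1 (-0.13 to 0.09). In experiment 2 it was below 0 in 6 of 6 (-0.68 to -0.12), as in 23 of all 30. Their r with Lipa in experiment 2 was negative in 6 of 6, as in 21 of all 30, where 52.1% of all tested genes had a positive r. A match describes these letters only.

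Beyond the 33 genes, 6 lists of lysosomal and sterol genes (other hydrolases, other membrane proteins, other pump subunits, delivery of hydrolases, TFEB-family and nutrient-sensing genes, and cholesteryl ester storage and export) held 109 counted genes. In experiment 1, 92 were tested, 44 of them were above 0 and the median was -0.01. At an unadjusted p under 0.05, 0 of the 92 were higher and 1 lower, where 5.58% of all tested genes had one. In experiment 2, 97 were tested, 50 were above 0 and the median was 0.006. At the same level 2 of the 97 were higher and 1 lower, where 1.33% of all tested genes had one. The gene that was lower in both was Abcg1, which exports cholesterol from cells. It had 452 ± 37.9 normalised counts in water rats and 395 ± 13.3 in EtOH rats of experiment 1 (SD, n = 5 each), a log2 fold change of -0.19 (SE 0.069; unadjusted p = 0.0143, edgeR adjusted p = 0.861). In experiment 2 it had 746 ± 109 and 601 ± 117 (SD, n = 6 each), a log2 fold change of -0.31 (SE 0.143; unadjusted p = 0.0492, edgeR adjusted p = 0.675). The groups of Abcg1 overlapped in both experiments. The 2 that were higher in experiment 2 were Naaa, an acid amidase of N-acylethanolamines, at a log2 fold change of 0.40 (SE 0.180; edgeR adjusted p = 0.675) and Ctsk, cathepsin K, at 0.45 (SE 0.209; edgeR adjusted p = 0.675).

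Markers of cell types that could carry lysosomal RNA were read beside these values. Of 9 microglial markers tested, 4 were above 0 and 5 below 0 in experiment 1 (median log2 fold change -0.02), and 0 had an unadjusted p under 0.05. Summed over the 12 microglial markers, none of which was at 0, the normalised count was 1509 to 1758 in water rats and 1486 to 1650 in EtOH rats. In experiment 2, 3 of 9 were above 0 and 6 below 0 (median -0.30), again with 0 at an unadjusted p under 0.05, and the sums were 1584 to 3719 and 1442 to 2986. The 4 markers of perivascular macrophages summed to 28.8 to 91.3 in experiment 1 and 54.9 to 528 in experiment 2, and none passed the filter. No marker of another cell type passed an FDR of 0.05 in experiment 1, where 5.58% of all tested genes had an unadjusted p under 0.05. Of the neuroblast markers, 3 of 3 tested were higher at that unadjusted level, each at an edgeR adjusted p of 0.536. They were Dcx, a microtubule protein of migrating neurons, at a log2 fold change of 0.39 (SE 0.092), Cd24 at 0.55 (SE 0.131) and the transcription factor Dlx1 at 0.76 (SE 0.190). Of 8 projection neuron markers, 7 were below 0 (median -0.26) and 1 was lower at that unadjusted level. It was Drd1, the dopamine receptor of direct-pathway projection neurons, at -0.50 (SE 0.170; edgeR adjusted p = 0.83). Of 4 oligodendrocyte precursor markers, 1 was higher at an unadjusted p under 0.05, Pdgfra at 0.30 (edgeR adjusted p = 0.536), with a median of 0.15 over the 4. Of 8 astrocyte markers it was Gjb6 alone at 0.48 (edgeR adjusted p = 0.823), with a median of 0.03. Of 6 endothelial and mural markers tested, 2 were, Flt1 at 0.21 (edgeR adjusted p = 0.823) and Cldn5 at 0.20 (edgeR adjusted p = 0.866), with a median of 0.08. Col1a1 of fibroblasts at 0.64 and Foxj1 of ependyma at 0.65 (edgeR adjusted p = 0.866 each) were also higher at that level. Each was the only marker tested of the 5 in its list. In experiment 2 some cell types leaned below 0, as most lysosomal genes on the list did, and others did not. Endothelial and mural markers had 0 of 6 above 0 (median -0.35) and oligodendrocyte markers 2 of 8 (median -0.13). Oligodendrocyte precursor markers had 1 of 4 above 0 (median -0.44) and projection neuron markers 3 of 8 (median -0.27). Pan-neuronal markers had 4 of 6 above 0 (median 0.12) and neuroblast markers 3 of 3 (median 0.36). The 2 fibroblast markers tested were at 0.75 and 1.26. Astrocyte markers were even, with 4 of 8 above 0 (median -0.09). Of the markers tested in experiment 2, 1 had an unadjusted p under 0.05, Adora2a, an adenosine receptor of indirect-pathway projection neurons, at -0.54 (SE 0.237; edgeR adjusted p = 0.675). The part of cell composition in the values of Lipa and of the other lysosomal genes was not tested.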

How the data were processed

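RNA was measured by poly(A) sequencing in 22 NAc samples, unstranded in experiment 1 and stranded in experiment 2. The deposited values are raw read counts per gene, which the authors made with TopHat2 2.0.13 and HTSeq (0.5.3p3 and 0.6.0 are named) on Rnor_6.0; the counting options and gene annotation are not given in the sources used here. Counts were fitted with edgeR 4.0.16 (quasi-likelihood, TMM) in R 4.3.3, separately per experiment, on genes whose mean normalised count exceeded the median of all genes, and p-values were adjusted over all tested genes. The difference between experiments was fitted over all 22 rats. For normalised counts, each library was scaled to the average library of its experiment after TMM; correlations used log2 CPM (prior count 2) with group means removed. Reads outside genes are a percent of those plus reads on genes; they and ambiguous reads stayed out of library sizes and tests. No pair of libraries of the same group agreed within sampling noise (chi-square per degree of freedom 2.668 or more), and pairs across groups were not checked. The median library had 3730378.5 (experiment 1) and 7692077.5 (experiment 2) reads on genes. The edgeR test of EtOH against water was checked on simulated counts, and the correlation test on simulated normal values. The other tests and fits were not checked by simulation. The genes and lists were chosen with earlier results of these data known. Named genes were Lipa, members with an unadjusted p under 0.05, the 3 lowest p of each experiment, Tfeb, Lamp1, Grn, Npc1, Npc2, the 3 members and 5 genes with the highest r with Lipa, and listed genes with an unadjusted p under 0.05; members named beside these were picked after their values were seen. Alternatives were DESeq2 1.42.0, its size factors, other filters, all 4 groups in 1 fit, a replicate block, another edgeR mode, another prior count, the share of reads outside genes as a covariate, and leaving out each rat.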

Additional observations from a re-analysis of the deposited data

Results flagged for a closer look

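The scan covered 136 combinations of a group with a gene, the share of reads outside genes or the number of reads on genes. In 8 of them, all for genes, 1 rat stood farther from the others than Dixon's 95% limit allows. Chance gives about 1 in 20, or 6.8. For Lipa in experiment 1, EtOH replicate 5 was low at 216.9 normalised counts, with the other 4 at 256 to 266, and without it the log2 fold change of Lipa was 0.43. The same rat was high for Npc1 at 474 (others 367 to 388) and for Tpp1, the tripeptidyl peptidase, at 490.3 (others 418 to 426). Ppt1 was high in water replicate 1 at 765 (others 560.2 to 577). In experiment 2, EtOH gavage replicate 4 was high for Arsa at 194 (others 14.3 to 77.0) and for Tfeb at 27.4 (others 1.94 to 10.6). Ctsb was high in EtOH gavage replicate 5 at 6124 (others 4764 to 5229), and Tpp1 in water gavage replicate 5, one of the 4 rats above 52% reads outside genes, at 1010 (others 822 to 868).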

How the results depend on the processing

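In the comparisons of EtOH with water, no lysosomal gene beside Lipa passed an FDR of 0.05 under any alternative run, in either experiment or in the difference between them. In experiment 2 the number of other genes at an unadjusted p under 0.05, reported as 0, was 1 without a filter (Tfeb), 2 with all 4 groups in 1 fit (Cln3 and Atp6v1a), and 1 without the 4 rats above 52% reads outside genes (Asah1). Of all genes in those fits, 2.03%, 7.2% and 10.6% had one. The number above 0, reported as 7, was 14 with the share of reads outside genes as a covariate and 12 without the 4 rats, and the median log2 fold change, reported as -0.13, was -0.01 and -0.02. The median r with Lipa, reported as -0.50, was -0.13 with the relation to the share removed and -0.17 without the 4 rats. With the replicate number as a block, 3 other genes of experiment 2 had an unadjusted p under 0.05 (Psap, Lgmn and Cln3), while 414 rather than 115 of all tested genes had one. Same-numbered rats of experiment 2 correlated between -0.759 and 0.835, and of experiment 1 between -0.125 and 0.144. In experiment 2, 73.2% of the variance between rats lay along 1 principal component, which had an absolute r of 0.974 with the share of reads outside genes. These correlations therefore cannot show whether the numbers pair the rats. For the difference between experiments the block gave 1 gene at an unadjusted p under 0.05 (Ctsz) and leaving out the 4 rats 3 (Psap, Ctsz and Gaa), where 0 are reported. Of all genes in those fits, 4.15% and 11.1% had one.

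Leaving out 1 rat at a time gave 0 to 2 other genes at an unadjusted p under 0.05 in experiment 1 and 0 to 4 in experiment 2. In experiment 1 the 2 were Ctsz and Gaa, without water replicate 2, where 5.1% of all tested genes had one. In experiment 2 Cln3 had one without water gavage replicate 1, as did 8.94% of all tested genes. Without EtOH gavage replicate 4 the 4 were Arsa, Gaa, Cln3 and Atp6v1a, where 8.97% of all tested genes had one. In experiments 1 and 2 the number above 0 was 15 to 20 and 7 to 9, and the median log2 fold change 0.003 to 0.029 and -0.17 to -0.07. The median r with Lipa was -0.03 to 0.14 and -0.60 to -0.39, with 13 to 19 and 9 to 11 genes above 0. All tested genes at an unadjusted p under 0.05 in experiment 2 numbered 28 to 776. The causes of these shifts were not tested. The spread between rats in experiment 2 limits what can be seen there.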
